A study of Arabidopsis thaliana with 2 samples.

Results

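The peaks described here are the close neighbours in a genome-wide list of peaks, taken to be those of IBH1 joined to green fluorescent protein (IBH1-GFP). They are all peaks on chromosomes 1 to 5 of Arabidopsis thaliana with a gap of 500 bp or less between their edge and that of another listed peak. Of 2945 listed peaks, 237 met this rule, which is 8.05% of the 2944 nuclear peaks (exact 95% interval 7.09% to 9.09%). They formed 116 clusters, and 121 pairs of members were direct neighbours within a cluster. The members were chosen by the measured peak positions (the start and end of each peak in the list), so every value below that comes from the list is a description without a test.

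IBH1 belongs to the atypical proteins of the basic helix-loop-helix (bHLH) class and lacks the basic residues with which typical bHLH proteins touch DNA. It represses cell elongation in the brassinosteroid pathway by pairing with growth-promoting bHLH proteins, and proteins of the PRE family relieve that repression. In chromatin immunoprecipitation followed by sequencing (ChIP-seq), a peak is a stretch of genome where precipitated fragments pile up, and the summit is its highest point. Peaks that lie close together can fall within the bounds of a single gene or on adjacent genes.

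Whole seedlings of ecotype Col-0 were collected 10 days after sowing, grown untreated at 22 °C with a 16 h photoperiod. The IBH1-GFP line (p35S::IBH1-GFP, IBH1OE) expressed IBH1 joined to green fluorescent protein from the strong 35S promoter. The control line (p35S::GFP) expressed the fluorescent protein alone, and an antibody against GFP was used for both. Each group was a single library made from the pooled DNA of 3 ChIP experiments, so no spread between replicates can be given. The tagged sample is titled IBL1 while its line names IBH1, and the library protocol names Col-0 in place of the GFP line. No sample is named in the list, which was taken to hold the IBH1-GFP peaks since the series is about IBH1. Read totals were not given in the labels or files, and intervals cover counting error only, with peaks of a cluster counted as if they were independent. Each peak carries the peak caller's score, which grows as its p-value falls, and a summit height in stacked fragments, both the authors' own values. The peak over IBH1 itself, the highest scoring of the list at 1045.71, was not a member: its nearest listed neighbours were 49462 bp and 41653 bp away.

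Nearly all clusters were pairs. There were 112 clusters of 2 peaks, 3 of 3 peaks and 1 of 4 peaks. From the first edge to the last, clusters spanned 1269 to 4871 bp, with a median of 2189 bp. The gaps ran from 2 to 496 bp with a median of 185 bp, and no listed peaks overlapped. The distance between neighbouring summits was 427 to 3133 bp, with a median of 1119 bp (quartiles 933 and 1569 bp).

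Short gaps were more frequent than gaps just above the limit. Neighbouring pairs numbered 37 at gaps of up to 100 bp, 26 from there to 200 bp and 31 up to 300 bp. The next bins of 100 bp held 14 and 13 pairs, and the 15 bins from the limit to 2000 bp held 6 to 18 each. At the edge of the rule, the widest gaps inside were 481, 484 and 496 bp, and the narrowest outside were 503, 514 and 549 bp. Just inside lay a pair at AT5G25930, a pair with its second summit inside ERF4 (AT3G15210), which encodes a repressor of ethylene responses, and a pair in RDR2. Just outside lay a pair with no protein-coding gene in reach, a pair at AT5G50370 and CPI1 (AT5G50375), and a pair of which 1 summit was inside AT3G43580.

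**Figure D1:**
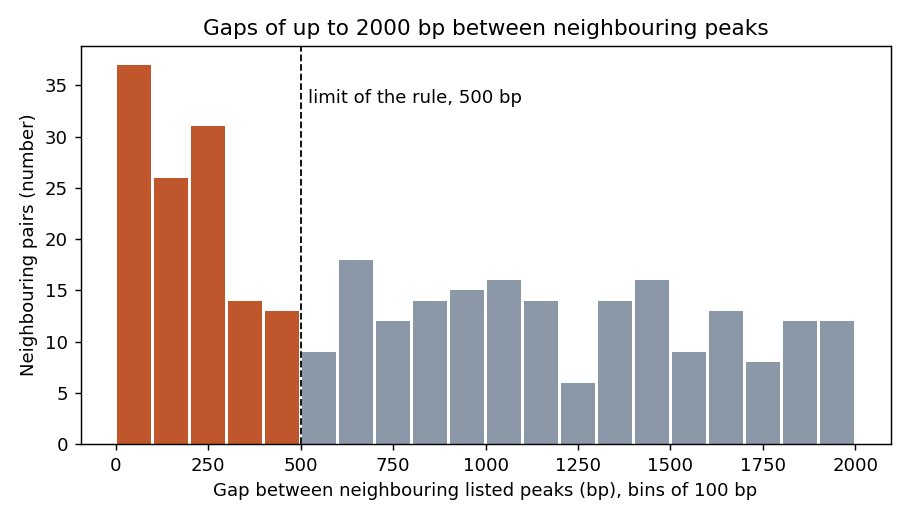
Number of neighbouring pairs of listed nuclear peaks (vertical axis) by the gap between their edges in bins of 100 bp (horizontal axis), up to 2000 bp. Bars up to the dashed limit of 500 bp are the clustered pairs, with 37, 26, 31, 14 and 13 pairs, and the bars beyond it hold 6 to 18 each.

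The 4 larger clusters lay on chromosomes 1 and 4. The cluster of 4 peaks, on chromosome 4 from 6779276 to 6784104 (all coordinates are the authors' TAIR9 coordinates, counted from 1), lay over RDR2 (AT4G11130) and its neighbour AT4G11120. RDR2 is the RNA-dependent RNA polymerase that makes double-stranded RNA for RNA-directed DNA methylation. Its first summit was inside AT4G11120, scoring 72.85 and standing 24 fragments high. The next 3 summits were all inside RDR2, with scores of 53.56, 55.97 and 57.08 and heights of 34, 24 and 21 fragments. The lowest score of the list was 50.01.

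The ribosomal protein gene RPL18AA (AT1G29970) held all 3 summits of a cluster on chromosome 1 from 10498836 to 10501636. Their scores were 50.46, 50.57 and 80.23 and their heights 33, 23 and 32 fragments. The first of these summits also lay inside AT1G29965, whose bounds overlap, so the peak cannot be given to either gene alone. The third cluster, on chromosome 1 from 12549791 to 12553658, was the strongest of the 4. STOP1 (AT1G34370), a zinc finger transcription factor of tolerance to acid soil and aluminium, held summits scoring 183.41 and 208.44, with heights of 43 and 28 fragments. The last summit of that cluster, which scored 56.31 and was 23 fragments high, was inside AT1G34380.

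The last of these clusters, on chromosome 4 from 1336304 to 1339097, ran out of a gene. Its first summit was inside AT4G03030 with a score of 117.22, the second outside but within 1000 bp of that gene with 85.32, and the third beyond the reach of any protein-coding gene with 53.95. The heights were 25, 29 and 25 fragments.

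**Figure D2:**
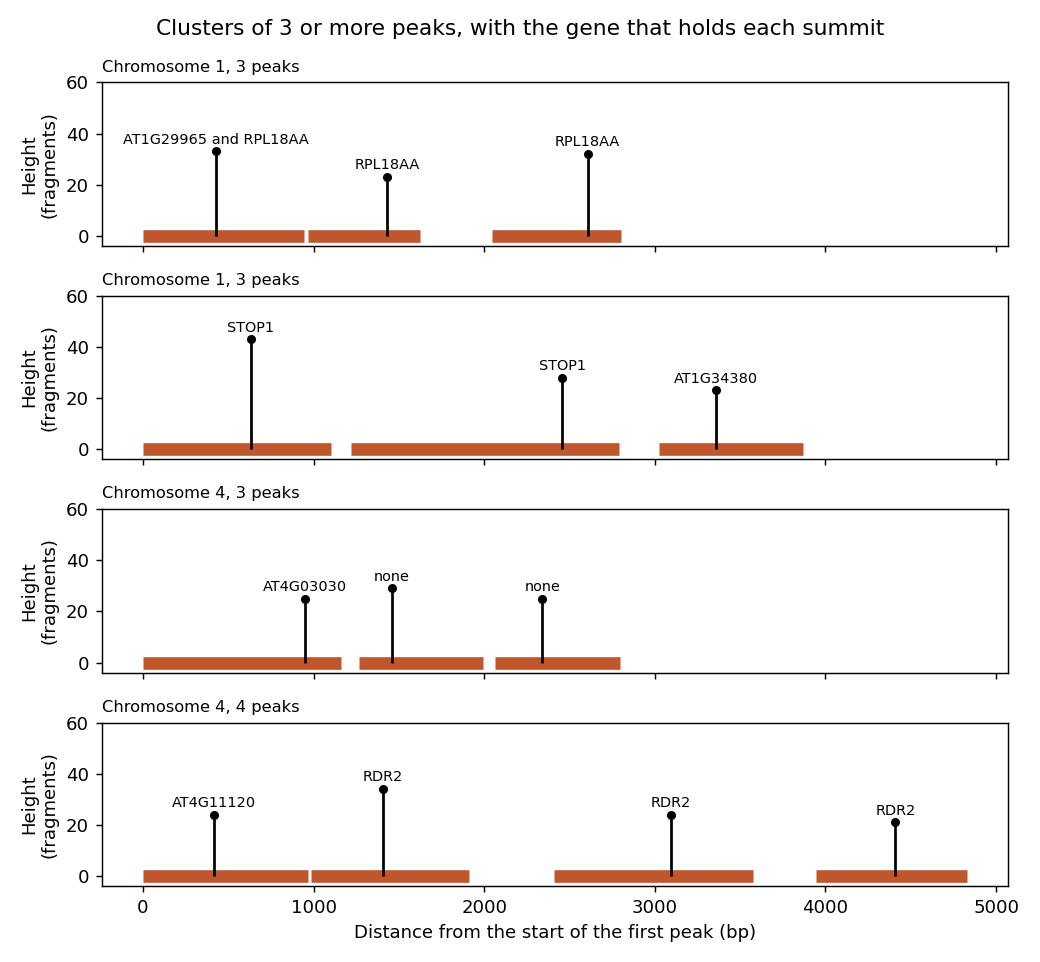
The 4 clusters of 3 or more peaks, each drawn from the start of its first peak (horizontal axis, bp). Thick bars are peaks, vertical lines are summits with their height in stacked fragments (vertical axis), and the text names the protein-coding gene that holds each summit, or none. RDR2 and RPL18AA each hold 3 summits and STOP1 holds 2.

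The next question was whether the summits of a cluster share a gene. A gene is called in reach of a summit here when it holds the summit or lies within 1000 bp of it. In 32 of the 116 clusters a single protein-coding gene held all summits, and in 70 more a gene was in reach of all of them without holding all. In 14 clusters no protein-coding gene was in reach of every summit. Clusters had 1 protein-coding gene in reach in 39 cases, 2 in 57, 3 in 16 and 4 in 1 case, and 3 clusters had none.

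By pairs, both summits were inside the same gene in 36 of 121 (29.8%, exact 95% interval 21.8% to 38.7%). In 46 pairs (38.0%) a gene held 1 summit and the other lay outside but within 1000 bp of that gene. In 24 pairs (19.8%) each summit was inside a different gene, and in 23 of these a gene was in reach of both. In 2 pairs the gene in reach of both summits held neither, and 13 pairs (10.7%) shared no gene. In all, 107 pairs (88.4%, 81.3% to 93.5%) had a gene in reach of both summits. In 76 pairs (62.8%) the protein-coding gene nearest to each summit was the same. No share over other neighbouring pairs is given here for this value or for the classes of 46, 24 and 2 pairs. They are therefore not read as particular to clustered peaks.

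Sharing a gene was not limited to the clustered pairs. Over all 2939 neighbouring pairs of the list, most of which lay far apart, both summits were inside 1 gene in 3.57%. At gaps over 500 and up to 1000 bp the share was 26.5% (18 of 68 pairs, exact 95% interval 16.5% to 38.6%), and over 1000 up to 2000 bp it was 26.7% (32 of 120, 19.0% to 35.5%). Within the clusters it was 24.7% at gaps of up to 250 bp (19 of 77, 15.6% to 35.8%) and 38.6% over 250 up to 500 bp (17 of 44, 24.4% to 54.5%). These 4 intervals overlap. The share with a gene in reach of both summits was 90.9% and 84.1% in the 2 clustered bins, and 58.8% and 60.8% in the next 2. It was 21.4% over 2000 up to 5000 bp, 1.35% over 5000 up to 10000 bp and 0.05% beyond, where 1998 of the 2939 pairs lay. At gaps over 5000 bp no pair had both summits inside 1 gene.

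**Figure D3:**
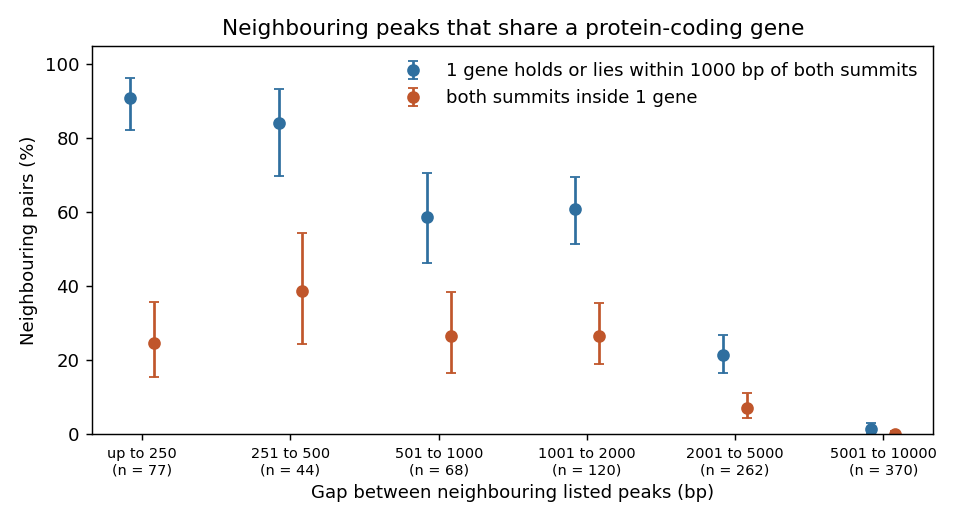
Share of neighbouring pairs (vertical axis, %) by gap (horizontal axis, bp) for which 1 protein-coding gene holds or lies within 1000 bp of both summits, and for which both summits are inside 1 gene. Points are shares of the n pairs given and bars exact 95% binomial intervals. Both summits were inside 1 gene in 24.7%, 38.6%, 26.5% and 26.7% of pairs in the first 4 bins.

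The 36 pairs inside 1 gene fell in 34 genes. Their median length in the TAIR10.1 gene table was 2549 bp (range 1216 to 6109 bp), against 2444 bp for the 1934 genes that held a summit of any peak and 2078 bp for all 27444 protein-coding genes. Their summits were 427 to 2540 bp apart, with a median of 1107 bp. The longest gene was HA1 (AT2G18960), which encodes a plasma membrane proton pump, with summits of 31 and 37 fragments and scores of 53.17 and 58.16. The farthest summits inside 1 gene, 2540 bp apart, were in RBP47B (AT3G19130), an RNA-binding protein gene, with scores of 60.37 and 61.2 and heights of 30 and 33. The pair at AT2G15690, 2153 bp apart, scored 56.52 and 134.33, and its first summit was also inside CML30 (AT2G15680), a calmodulin-like gene. The other 3 of the 5 farthest pairs, 1796 to 1826 bp apart, were in STOP1, AT2G15300 and AT5G35735. The pair in AT5G35735 was high on both sides, with scores of 131.91 and 171.8 and heights of 44 and 47, whereas that in AT2G15300 had 59.41 and 107.44 and heights of 21 and 59.

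Within a pair the higher score was 1.36 times the lower at the median (quartiles 1.13 and 1.90, highest 3.99), beside a median of 1.37 over the 2818 other neighbouring pairs. It was at least 2 times the lower in 28 of 121 pairs (23.1%, exact 95% interval 16.0% to 31.7%), beside 526 of the 2818 others (18.7%, 17.2% to 20.2%), and under 1.1 times in 27 (22.3%). The lower score had a median of 63.7, and the higher one of 106.09. Both scores were 100 or more in 13 pairs, 1 of the 2 in 50 pairs and neither in 58. Across the 121 pairs the 2 scores had a Spearman rho of 0.07 and the heights one of -0.04. The other neighbouring pairs gave 0.04 and -0.02. Pairs come from 1 library and share peaks in the larger clusters. The taller summit was in the higher scoring peak in 80 pairs and in the other peak in 36, and 5 pairs had equal heights. Of the 46 pairs with 1 summit inside a gene and the other outside near it, the higher score was inside in 23 and outside in 23.

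**Figure D4:**
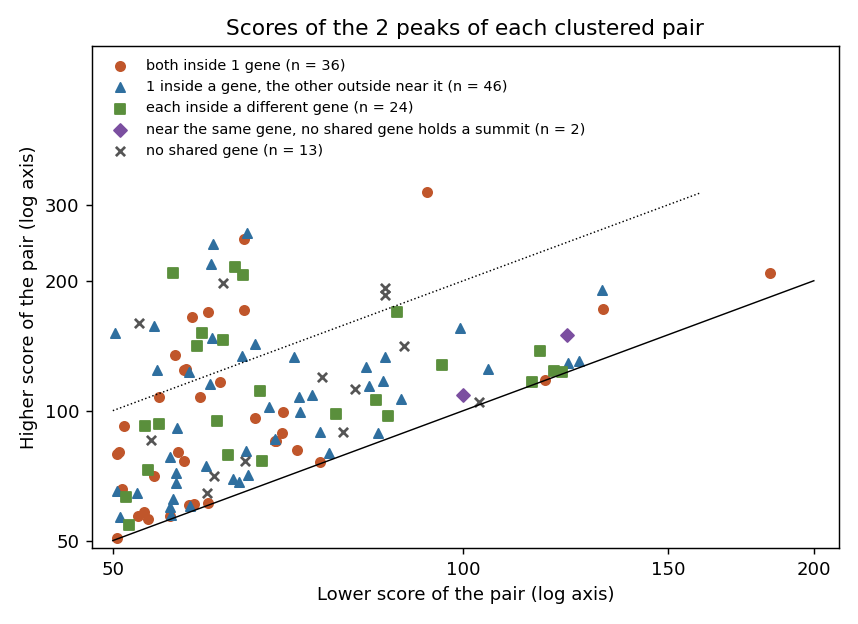
Higher score (vertical log axis) against lower score (horizontal log axis) of the peaks in each of the 121 clustered pairs, by how their summits lie to protein-coding genes. The solid line marks equal scores and the dotted line a ratio of 2, which 28 pairs reached.

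The highest single score was in AT3G44190 on chromosome 3, where peaks from 15901533 to 15903189 and from 15903192 to 15905007 were parted by 2 bp, the smallest gap of the list. They scored 93 and 321.52, with heights of 27 and 57 fragments. EXPA6 (AT2G28950), an expansin gene of cell wall loosening, held the summit of a peak scoring 258.14 and lay within 1000 bp of the next, which scored 65.22, although both summits were 33 fragments high. AT4G08850 held both summits of a pair scoring 64.78 and 250.05, with heights of 23 and 30. AT2G05790 held a summit scoring 243.21 and had another in reach scoring 60.92, with heights of 41 and 20. At AT1G59910 the summit inside the gene scored 60.75 and the summit outside it 218.98.

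Other high pairs had their summits in different genes. ECI1 (AT1G65520), an enoyl-CoA isomerase gene of fatty acid breakdown, held a summit scoring 215.59 and LETM2 (AT1G65540) the next, scoring 63.7. AT5G27970 held a summit scoring 64.71 and AT5G27990 one scoring 206.73, with AT5G27980 in reach of both. In 3 of the highest pairs no protein-coding gene was shared. At the polyubiquitin gene UBQ11 (AT4G05050), which is in reach of a summit scoring 192.74, the next summit, 3133 bp away and scoring 85.66, was inside AT4G05060. ATPC1 (AT4G04640), the gamma subunit gene of the chloroplast ATP synthase, held a summit scoring 85.59 next to a peak scoring 184.93 that was in reach of a pseudogene. The pseudogene AT5G38365 held both summits of a pair scoring 197.71 and 62.13.

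The tallest member, 79 fragments, was inside ERF4 with a score of 52.66, while its partner near AT3G15200 had 47 fragments and a score of 159.87. Beside AT2G24390 a summit of 75 fragments scored 190.27, and its partner inside that gene, with 40 fragments and a score of 131.47, was also inside the tRNA gene AT2G24380. A summit of 66 fragments (score 116.31) was inside AT1G78280, next to one of 32 (114.62) inside UGT85A4 (AT1G78270), a glucosyltransferase gene. TOM3 (AT2G02180), named for its part in tobamovirus multiplication, held a summit of 62 fragments scoring 65.05, with a partner of 23 scoring 50.43. The remaining gaps among the 5 smallest were 4 bp at AT1G63230, 5 bp at UBQ11, 8 bp at the farnesol kinase gene FOLK (AT5G58560) and 15 bp at RDR2.

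As a whole, clustered peaks had a higher median score than the others and the same median height. The median score was 77.69 (quartiles 60.77 and 115.23), against 72.28 (58.72 and 98.73) for the 2707 other nuclear peaks. A score of 100 or more was reached by 75 members (31.6%, exact 95% interval 25.8% to 38.0%), against 24.8% of all nuclear peaks. The median height was 27 fragments in both sets, and the upper quartile was 36 in members and 34 in the others. Median widths were 905 and 884 bp. The highest score among members, 321.52, was far below the highest of the list. Summits lay on either side of the middle of their peak: 114 of 242 (47.1%) were nearer the edge that faced it, counting a middle peak once for each side.

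**Figure D5:**
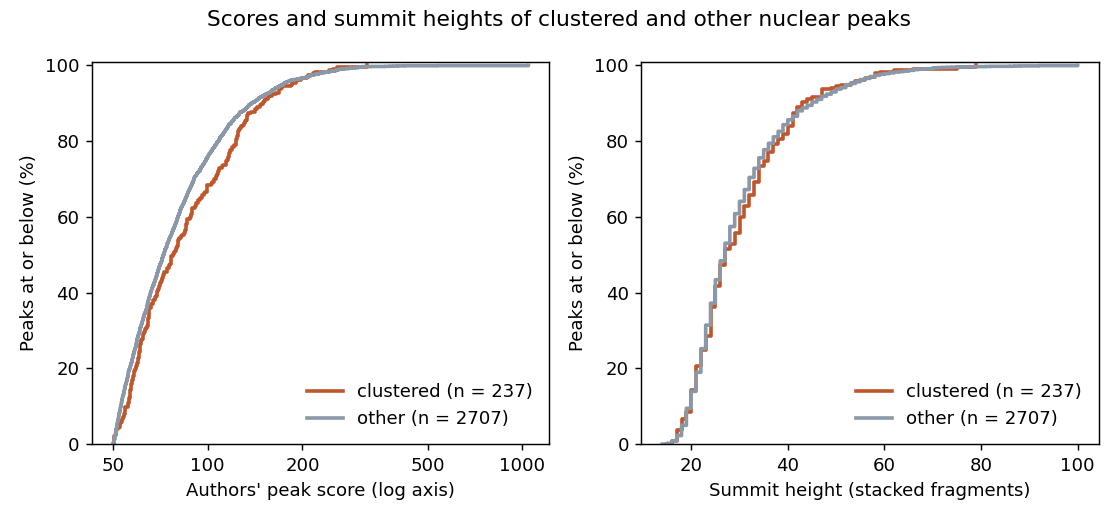
Cumulative share of peaks (vertical axes, %) by the authors' score (left, log axis) and by summit height in stacked fragments (right) for the 237 clustered and 2707 other nuclear peaks. The score curve of the clustered peaks lies to the right of the other in its middle part (medians 77.69 and 72.28), and the height curves run together (median 27 in both).

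Members were inside genes about as often as peaks in general. The summit was inside a protein-coding gene for 167 of 237 members (70.5%, exact 95% interval 64.2% to 76.2%), against 67.5% of all nuclear peaks. A further 57 (24.1%) were outside but within 1000 bp of one, against 23.0% of all nuclear peaks. The other 13 (5.49%, 2.95% to 9.20%) had none in reach, against 9.54% of all nuclear peaks. The members had 205 protein-coding genes in reach, which is 0.747% of all, and 135 of these held a member summit. As a check of the TAIR9 summits against the gene table, they were moved along the chromosome. Moved by 2000 bp either way, 60.3% and 62.4% of member summits fell inside a gene, and by 5000 bp 54.9% and 55.3%. A tRNA gene was in reach of 9 members in 7 clusters (3.797%, 1.75% to 7.09%), against 2.75% of all nuclear peaks. A pseudogene was in reach of 17 members (7.17%), against 7.64%. The gene table gives neither strand nor exons, so summits could not be placed upstream or downstream, nor in exons or introns.

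Clusters were spread unevenly over the chromosomes. Chromosome 4 had 33 clusters, and 69 of its 630 peaks were members (11.0%, exact 95% interval 8.62% to 13.7%). Chromosome 2 had 27 clusters (10.0% of its peaks), chromosome 1 had 24 (7.09%), chromosome 5 had 19 (6.76%) and chromosome 3 had 13 (5.14%, 3.38% to 7.44%). Of windows of 500000 bp, 36 of 240 held fewer than 60 protein-coding genes. Of the peaks inside these gene-poor windows 15.0% were members (26 of 173, 10.1% to 21.2%), of those within 2 Mb of them 9.93% (98 of 987, 8.13% to 11.97%) and of those farther away 6.33% (113 of 1784, 5.25% to 7.57%). By another count, 98 of 237 members (41.4%) lay in the 2 Mb flanks, against 33.5% of all nuclear peaks. The list held 9.61 peaks per Mb in the gene-poor windows, 47 in the flanks and 22.3 farther away. Whether peak density bears on the shares of members was not tested.

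The counts of listed genes at clustered summits stand beside 0.747% of all protein-coding genes in reach of such a summit. None of 19 bHLH network genes around IBH1 was in reach of a clustered summit. Likewise, none of 24 light signalling genes was in reach of one. The lists are too short for such an absence to be told from that share. Of 23 brassinosteroid genes, 1, BIN2 (AT4G18710), was in reach of a clustered summit. BIN2 is the GSK3-like kinase that holds the pathway's transcription factors inactive. Its summit, 39 fragments high with a score of 151.08, was inside a tRNA gene and nearer to the ribosomal protein gene RPL16B (AT4G18730), which held the second summit of the pair (21 fragments, 50.25).

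Some further genes with known roles in hormones, growth and light are given next. They were chosen after their values were seen and are not a complete list. YUC9 (AT1G04180), a flavin monooxygenase gene of auxin synthesis, held both summits of a pair scoring 60.44 and 58.09, with heights of 17 and 21. NCED5 (AT1G30100), a dioxygenase gene of abscisic acid synthesis, held summits scoring 70.48 and 54.21. DFL2 (AT4G03400), of the GH3 family, held 1 summit scoring 59.7, and the other, scoring 151.66, was inside AT4G03410. DET1 (AT4G10180), a repressor of light-dependent development, held a summit scoring 53.32 beside AT4G10170, which held one scoring 92.15. LHCB5 (AT4G10340), a light-harvesting gene, held summits scoring 124.42 and 57.52, with heights of 34 and 24. GRF8 (AT5G65430), a 14-3-3 protein gene, held a summit scoring 107.77. The next summit, scoring 72.31, was within 1000 bp of GRF8 but nearer to AT5G65440. EXLA1 (AT3G45970), an expansin-like gene, held a summit scoring 143.08, and the next, scoring 66.18, was in reach of both EXLA1 and the histone gene HTB9 (AT3G45980).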

How the data were processed

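The deposited score of each peak and the deposited signal at each summit, in whole stacked fragments, are the authors' values, in 1 list for all samples. Per the submitters' processing notes, the tools were MACS, Bowtie and CASAVA (1.8.2) and the build was TAIR9. The score in a MACS peak list is a −log10 p-value on a scale multiplied by 10. Peak calling settings, and whether the control was used, are unknown from the labels and files. DNA of 3 ChIP experiments was pooled and amplified with 18 PCR cycles, per the labels' protocols. A cluster was a run of peaks with gaps of 500 bp or less, start of the later minus end of the earlier. Genes came from a RefSeq table of TAIR10.1, used for names and for which genes hold or neighbour a summit, and nuclear chromosomes were taken as carried over unchanged. Intervals are exact binomial (scipy 1.17.1, Python 3.11.15). The grouping was tested on simulated data. The members, lists and alternatives were chosen with earlier results of these data known. Of 67 gene codes in the lists, 1 was dropped because its symbol was not in the table. Named clusters are those with 3 or more peaks, the 12 highest scores, the 5 tallest, the 5 smallest gaps, the 3 gaps on either side of the limit, the 5 farthest summits inside 1 gene and those of the gene lists. Motif counts and printed sequences were not made, since sequence was not used here. The 1 mitochondrial peak was left out.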

Additional observations from a re-analysis of the deposited data

How the results depend on the processing

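With gaps of 250 bp or less there were 152 clustered peaks in 75 clusters, 5.16% of peaks, and with 1000 bp or less 361 peaks (12.3%), of whose pairs 77.8% had a gene in reach of both summits. With scores of 100 or more, 26 peaks in 13 clusters were left (3.57%), and at or above the median score 74 in 37 (5.02%). Under the latter limit the share of pairs with a gene in reach of both summits was 81.1% and that of members inside a gene 62.2%, which was 73.1% at scores of 100 or more. The share of pairs with a shared gene was 29.8% for summits inside genes alone, 67.8% with a window of 500 bp and 96.7% with 2000 bp. With any annotated gene, 77.2% of members were inside one. The numbers of peaks, clusters and shared genes move with these limits by construction. For the shares under score limits the cause was not tested. Of 37 combinations of result and setting, 19 moved by less than the counting interval or 1.5 times. The share of pairs inside 1 gene stayed between 23.1% and 33.9% under the 5 alternatives run for it. No paired analysis was possible because there was 1 library in each group. The depth is unknown, and a neighbour scoring under 50.01, the lowest score of the list, would not be listed.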

Other observations

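The genes named here were chosen after their values were seen. CBF1 (AT4G25490), a regulator of cold responses, held a summit scoring 89.04 and 47 fragments high, with a partner of 33 fragments scoring 75.37 outside the gene. MPK3 (AT3G45640), a kinase of defence signalling, held a summit scoring 60.81, which was also inside AT3G45645. The next summit, scoring 147.54, was inside the noncoding RNA gene AT3G45638 and within 1000 bp of both protein-coding genes. ERD10 (AT1G20450), a dehydrin gene, held a summit scoring 68.12, and the summit outside it scored 102.12. ADC1 (AT2G16500), an arginine decarboxylase gene of polyamine synthesis, held both summits of a pair scoring 50.96 and 65.83. PME31 (AT3G29090), a pectin methylesterase gene, held summits scoring 70.05 and 99.4. The plastid division gene PDV2 (AT2G16070) held summits scoring 69.86 and 88.81.

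Long noncoding RNA genes were in reach of 21 members (8.86%, beside 9.001% of all nuclear peaks), microRNA genes of 4 (1.69%, beside 0.781%) and small nucleolar RNA genes of 3 (1.27%, beside 0.611%). The U1 small nuclear RNA gene U1.2 (AT4G07120) held a summit 41 fragments high that scored 169.11. That summit was also inside AT4G23420, and the microRNA gene MIR5651 (AT3G07515) held a summit of 40 fragments scoring 78.79.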
